A study of Rattus norvegicus with 16 samples.

Results

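The genes described here are those enriched in the granular layer of the dentate gyrus (DG) of the rat hippocampus over the pyramidal layers of its other subfields, CA1, CA2 and CA3. They were chosen from the measured counts. Each count was turned into CPM, the count as a share of all counts in its library scaled to parts per 1000000, with 2 very abundant genes left out of the library totals, and a gene was a member when its mean over the 4 DG libraries was at least 5 CPM and at least 4 times the mean of each pyramidal subfield. Of 32883 genes in the count table, 183 met both thresholds, and 174 remained after Prox1, Rfx3, Pdyn, Rgs10, Cdh13, Grm2, Kcna3, Ntf3 and Drd1 were left out by name. Calb1 was also to be left out, but no table at hand gives its identifier, so it may stand among the 19 members without a symbol. The other 155 members took their symbols from the list of potential marker genes that the authors published as a supplement, which was drawn from these same libraries. All values of DG against a pyramidal subfield are therefore a description of how the members were chosen, with no test for any member. The tests concern the differences among CA1, CA2 and CA3, which the rule did not compare with each other.

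Male Wistar rats, 4 in number and aged 3 months, provided the tissue. The DG granular layer and the pyramidal layer of each CA subfield were cut out of brain sections under a microscope with a laser (laser capture microdissection, LCM). Total RNA of each subfield of each rat gave 1 stranded library, 16 in all, with replicates 1 to 4 per subfield. Reads counted on genes ranged from 3216512 in CA1 replicate 4 to 11933279 in CA3 replicate 2, and from 4706523 to 9262214 in the DG libraries. A level of 3 counts, taken as the limit of detection, was worth 0.315 CPM in the deepest library and 1.21 CPM in the shallowest.

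Dentate granule cells receive the cortical input to the hippocampus and send their axons, the mossy fibres, to the pyramidal cells of CA3. They are small, densely packed neurons that fire sparsely under strong inhibition, and new granule cells are added in adult life. The transcription factor Prox1 is required for granule cell identity, and proteins of the mossy fibre synapse, such as the secreted organizer C1ql2, are made in these cells.

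Some libraries stood apart and were treated accordingly. CA2 replicates 2 and 4 differed by no more than sampling noise (chi-square p = 0.456), the chi-square divided by its degrees of freedom being 1.001 over 12995 genes. For replicates 2 and 4 of DG this ratio was 1.04 over 13766 genes (chi-square p = 0.00176), whereas the other 22 pairs of libraries of one subfield gave 2.80 to 43.5. Each of these pairs was taken as 1 library, a limit of 1.5 on this ratio being used, so that 14 independent libraries remained, 4 of CA1, 3 of CA2, 4 of CA3 and 3 of DG. In the values that follow, CA1 and CA3 are given in the order of replicates 1 to 4, and CA2 and DG in the order of replicate 1, the repeated pair (mean of its columns) and replicate 3.

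The label was checked against defining markers. Prox1, left out of the list, was at 2.91, 6.11, 4.33 and 5.66 CPM in CA1, 4.42, 11.6 and 6.23 in CA2, 3.94, 11.9, 5.82 and 23.6 in CA3 and 401, 497 and 545 in DG. Every DG library lay far above every pyramidal library. Of the 11 pyramidal libraries CA3 replicate 4 was the highest, at 4.90% of the DG mean, followed by CA3 replicate 2 at 2.47% and the repeated CA2 pair at 2.41%. Rfx3, also left out, was at 25.8, 30.7, 27.8 and 31.1 CPM in CA1, 17.7, 30.4 and 27 in CA2, 10.6, 21.8, 19.1 and 34.3 in CA3 and 375, 550.1 and 455 in DG. The CA1 marker Wfs1 was at 993, 909, 786 and 805 CPM in CA1, 10.6, 129, 15.7 and 17 in CA3 and 14.7, 15.5 and 20.5 in DG, so that CA3 replicate 2 held far more of it than the other CA3 libraries. The CA2 marker Amigo2 was at 187, 120.2 and 152 CPM in CA2 and 4.64, 4.16 and 4.29 in DG. Prox1 was thus high and both pyramidal markers low in all DG libraries. Prox1 and Rfx3 also met the thresholds of the rule, and the granule markers C1ql2 and Dsp are members, so that their levels in DG are no further check. The other 53 marker genes that were listed, all those of mossy cells, interneurons, glia and vessels among them, had no identifier and were not analysed.

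Summed over the 174 members, the DG libraries held 15647, 16404 and 16586 CPM. This is 1.56 to 1.66% of each library total without the 2 very abundant genes. In CA1 the sum was 10.3, 11.3, 11.6 and 11.9% of the DG mean, in CA2 9.32, 12.6 and 11.2%, and in CA3 9.43, 11.2, 10.2 and 13.97%. CA3 replicate 4 was the highest of the 11 pyramidal libraries and CA2 replicate 1 the lowest, and the 3 subfields overlapped. The mean over the pyramidal libraries was 11.2% (SD 1.36, n = 11), against 5.25% for the 9 left-out genes together. By count of genes, CA3 replicate 4 was the highest pyramidal library for 46 members (26.4%, against 6.55% of all genes tested), and the repeated CA2 pair for 25 (14.4%, against 6.66%). CA3 replicate 2 held about as much Prox1 as the repeated CA2 pair (2.47 and 2.41% of the DG mean). It was the highest pyramidal library for 9 members (5.17%, against 7.9% of all genes tested). CA3 replicate 4 and the repeated CA2 pair also held more Prox1 than most others, and the part that RNA of granule cells had in them was not tested. For this reason the pyramidal comparisons are given with and without these 2 libraries. In bulk tissue, fewer cells that express a gene and less RNA per cell cannot be told apart, and a low pyramidal value may be either.

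**Figure D1:**
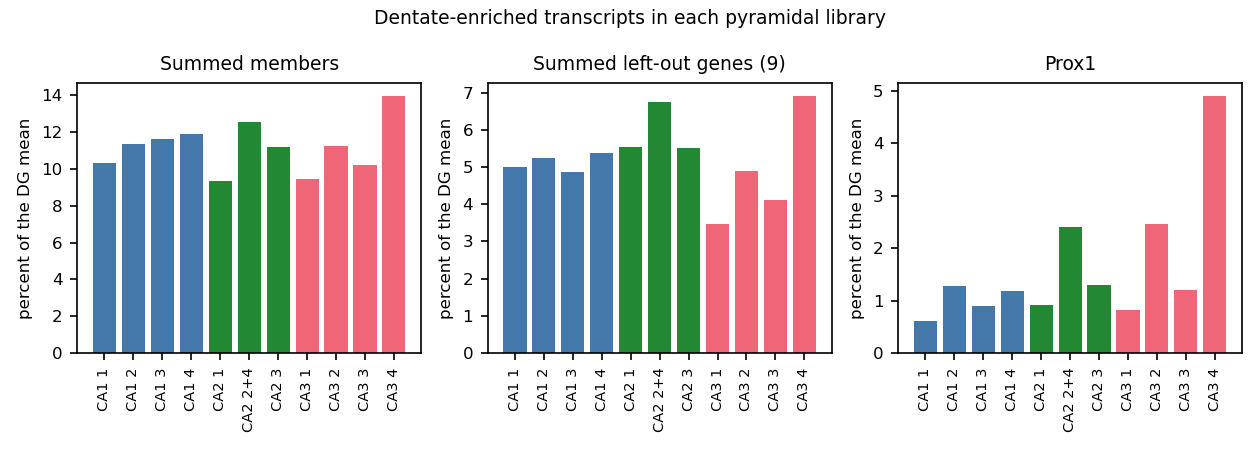
Bars give, for each of the 11 independent pyramidal libraries, the summed CPM of the 174 members, the summed CPM of the 9 left-out genes and the CPM of Prox1, each as a percent of its mean in DG. CA3 replicate 4 is the highest bar in each panel, at 13.97, 6.91 and 4.90%.

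The members spanned a wide range of levels. DG means ran from 5.02 to 1238 CPM with a median of 29.6, and 35 members were at 100 CPM or more while 32 lay under 10. The ratio of the DG mean to the highest pyramidal mean ran from 4.02 to 80.6 with a median of 6.77, and 51 members had a ratio of at least 10 while 48 stayed under 5. The 5 members with the highest DG means held 33.6% of the summed CPM and the first 10 held 49.1%. The highest pyramidal mean was in CA3 for 67 members, in CA1 for 57 and in CA2 for 50. Among genes with a highest pyramidal mean of 1 CPM or more the shares were 39.2% of members in CA3, 31.5% in CA1 and 29.4% in CA2, against 28.6, 45.8 and 25.6% of all genes.

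Among genes with a symbol, the members just inside the fold threshold were Zcchc12 with a ratio of 4.29, Zmat4 with 4.29 and Brinp3 with 4.31. Just outside it came Unc13c with 1.84, Fxyd7 with 0.145 and Htr5b with 0.129, since the list of names holds few genes near the limit. Among all genes the closest ratios were 4.02 and 3.97, and 100 genes lay between 3 and 4. At the level threshold, Pim1 was inside with a DG mean of 5.02 CPM and Ros1 outside with 4.96. All 174 members had their lowest DG library above their highest pyramidal library, which 15.5% of all genes tested also had. The rule used that contrast, and nothing is read from it.

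**Figure D2:**
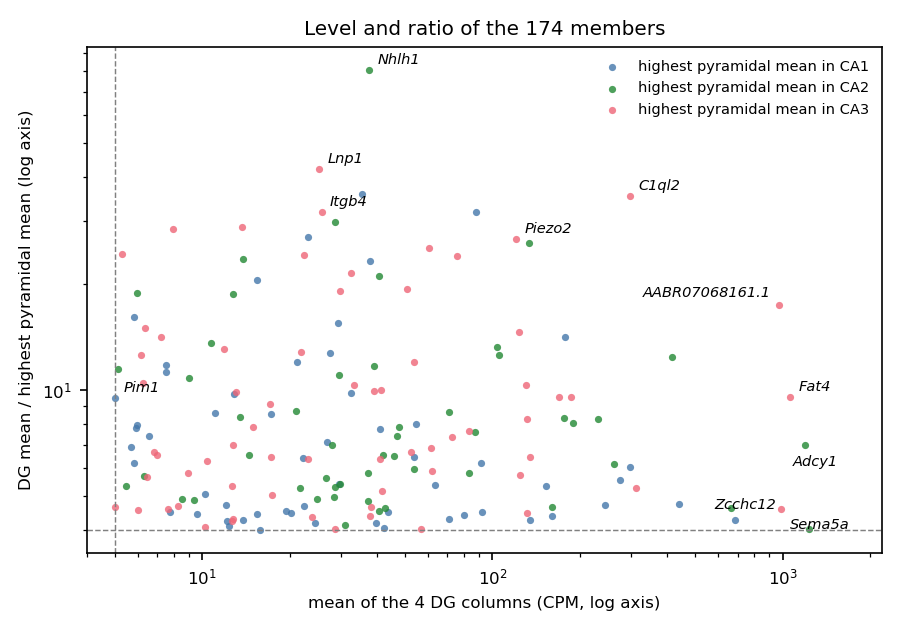
Each point is 1 of the 174 members, placed by its mean over the 4 DG columns (CPM, log axis) and by the ratio of that mean to its highest pyramidal mean (log axis), and coloured by the subfield with that highest mean. Dashed lines mark the thresholds of 5 CPM and 4-fold. Nhlh1 has the highest ratio, 80.6, and is named with other members of high level or ratio.

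The members with the highest ratios among those with at least 20 CPM in DG were Nhlh1, Lnp1, AABR07060341.2, C1ql2 and Itgb4. Lnp1 was at 0.264, 0.117, 0 and 0.404 CPM in CA1, 0.576, 0 and 0 in CA2, 0.152, 0.21, 0.248 and 1.8 in CA3 and 29.6, 23.2 and 25.3 in DG. Its pyramidal values were under 1 CPM except in CA3 replicate 4, and its ratio was 42.1. Itgb4, the integrin beta 4 subunit of hemidesmosomes, was at 0, 0, 0 and 0.404 CPM in CA1, 0.192, 0.296 and 0 in CA2, 0, 0.315, 0.124 and 2.79 in CA3 and 20.6, 27.2 and 28.2 in DG. It too was nearly absent from the pyramidal libraries other than CA3 replicate 4, with a ratio of 31.9. Nhlh1 and C1ql2 are described with their groups.

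The spread among the DG libraries differed by member. The coefficient of variation (CV, the SD as a percent of the mean over the 3 independent DG libraries) had a median of 13.5%, against 11.4% over the 10906 genes with a DG mean of at least 5 CPM. Among members with a symbol and at least 20 CPM, the smallest values were 2.38% for Dock11, 2.42% for Tgfb2 and 2.94% for Ahcyl2. The largest were 39% for Zfp467, 35.7% for Fhdc1 and 33.6% for RGD1564664. Zfp467 was at 16, 24 and 35.5 CPM in DG, Fhdc1, a formin family gene, at 31.7, 36.5 and 60.3 CPM in DG and RGD1564664 at 17.8, 19.8 and 32.2 CPM in DG. In all of them DG replicate 3 was the highest library. DG replicate 3 was the highest DG library for 74 members (42.5%, against 31.1% of all genes tested).

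The pyramidal subfields were then compared with each other in 1 fit to all 17174 genes with more than 10 counts, which included all 174 members. Adjusted p-values come from the quasi-likelihood test of edgeR, adjusted over all genes tested by the method of Benjamini and Hochberg, and a gene is called when this value is under 0.05. A log2 fold change is given as the first subfield over the second, ± SE. The members also had more than 10 counts over the pyramidal libraries alone, so none was tested only because of its level in DG, but their median pyramidal level was 2.91 CPM, against 13.0 CPM over all genes tested.

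Between CA1 and CA2, 12 members were higher in CA1 (6.9%, with 6.31% called among all genes tested) and 23 were higher in CA2 (13.2%, with 8.0% called). Between CA1 and CA3, 20 were higher in CA1 (11.5%, with 12.1% called) and 37 in CA3 (21.3%, with 12.7% called). Between CA2 and CA3, 15 were higher in CA2 (8.62%, with 4.16% called) and 27 in CA3 (15.5%, with 3.48% called). In this fit the shares higher in CA1 were near those of all genes, and the shares higher in CA2 and in CA3 were above them. The balance of directions changed with the libraries used, as given below. The median size of the log2 fold change was 0.53 over the members and 0.29 over all genes tested in CA1 against CA2, 0.67 and 0.33 in CA1 against CA3, and 0.56 and 0.23 in CA2 against CA3. The members had lower pyramidal levels than all genes tested, and fold changes are less precise at low counts. No comparison with genes of matched level was made, so these sizes are not read as larger differences among the subfields. The comparisons share libraries, so their counts are not independent of each other.

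Since the subfields came from the same rats, the fit was repeated with the rat as a block, over the 12 columns left without the repeated pairs, whose rat is not known. Without regard to direction, the paired counts were 39 members in CA1 against CA2 (18% called among all genes), 70 in CA1 against CA3 (33.5% called) and 45 in CA2 against CA3 (9.38% called). Over the same 12 columns with no block, an alternative added after seeing the data, they were 28 (13.3% called), 59 (24.4% called) and 29 (5.15% called). The unpaired counts over 14 libraries were 35 (14.3% called), 57 (24.8% called) and 42 (7.65% called), of which the paired fit shared 30, 57 and 32. With all 16 columns and the block they were 49 (22.4% called), 68 (33.3% called) and 55 (15.2% called). Without CA3 replicate 4 they were 39 (14% called), 59 (23.8% called) and 39 (7.05% called). Without CA3 replicate 4 and the repeated CA2 pair, an alternative chosen after seeing the data, 34 (13.4% called), 59 (23.7% called) and 33 (4.72% called) members were called.

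By direction the counts moved more. In the paired fit over 12 columns, 16 members were higher in CA1 and 23 in CA2. Between CA1 and CA3 the numbers were 27 and 43. Between CA2 and CA3 they were 20 and 25, against 15 and 27 in the main fit. The percents of all genes called in the paired fit are given above without regard to direction only. Without CA3 replicate 4, 26 members were higher in CA1 (11.8% called) and 33 in CA3 (12% called) between these subfields, and 18 were higher in CA2 (3.65% called) and 21 in CA3 (3.4% called). Without CA3 replicate 4 and the repeated CA2 pair, 18 were higher in CA1 (6.38% called) and 16 in CA2 (6.98% called), 28 in CA1 (11.8% called) and 31 in CA3 (12% called), and 14 in CA2 (2.48% called) and 19 in CA3 (2.24% called). The numbers higher in CA1 and in CA2, 12 and 23 in the main fit, were thus in the other order there, and they were 15 (6.49% called) and 16 (7.18% called) without the repeated CA2 pair alone. They were 7 (4.58% called) and 21 (5.65% called) without CA2 replicate 1, and 6 (4.36% called) and 21 (5.76% called) without CA2 replicate 3. The count in CA2 against CA3 fell from 42 to 24 without CA2 replicate 3 (5.25% called), with 12 higher in CA2 (2.88% called) and 12 higher in CA3 (2.38% called). Each of the 14 libraries was left out in turn, and the members called again in all of these fits were 6 of the 12 higher in CA1 and 14 of the 23 higher in CA2 between CA1 and CA2, 15 of the 20 higher in CA1 and 29 of the 37 higher in CA3 between CA1 and CA3, and, between CA2 and CA3, 8 of the 15 higher in CA2 and 12 of the 27 higher in CA3. How many of all genes called were called again in this way was not computed. These counts therefore describe single members and are no result about the list.

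**Figure D3:**
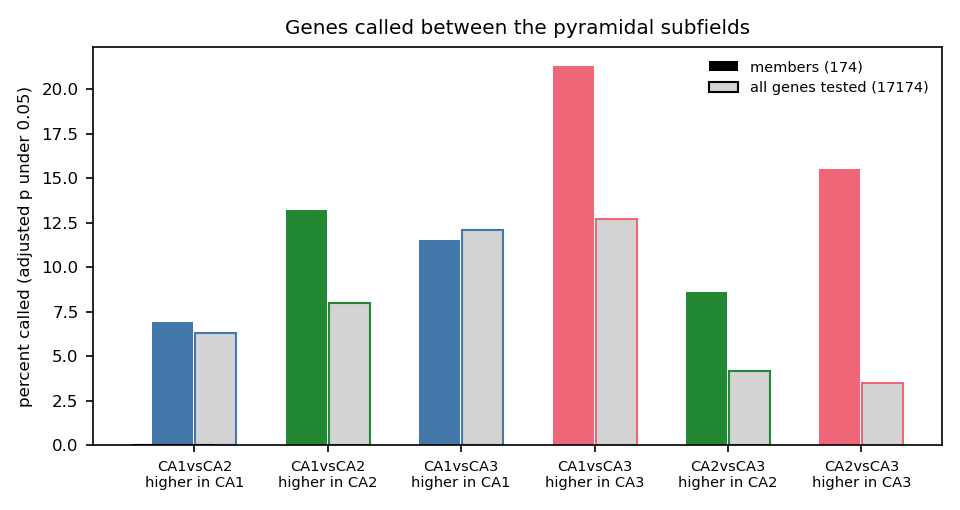
Bars give the percent of genes called (adjusted p under 0.05) in each pyramidal comparison and direction, for the 174 members (filled) and for all 17174 genes tested (grey). In this fit to 14 libraries the members lie near all genes for the directions higher in CA1, and above them for those higher in CA2, at 13.2 against 8.0% and 8.62 against 4.16%, and in CA3, at 21.3 against 12.7% and 15.5 against 3.48%.

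Taking the comparisons together, 20 members were higher in CA3 than in both CA1 and CA2 (2.69% called among all genes tested), and 17 of these also passed without CA3 replicate 4. The paired fit over 12 columns gave 18 (3.23% called), of which 15 were among these 20. In every fit that left out 1 library, 11 of them passed, Sema5a, Kitlg, Svep1, Pxdn, Gpc3, Igsf3, Marveld2, Trpc6, Zbtb8a, AABR07068161.1 and 1 member without a symbol (ENSRNOG00000023561). The others, C1ql2, Unc5d, Fat4, Stk26, Plk5, Cdc42bpg, Tnfaip8, Ddit4l2 and Vwa5b1, were all lost in CA2 against CA3 without CA2 replicate 3, and some of them also without other libraries. CA1 was below both others for 12 members (5.56% called), 7 of them in every such fit, and above both for 8 (5.0% called), 4 of them in every such fit, which are shares near those of all genes. The paired fit gave 10 (7.21% called) and 9 (6.27% called), with 8 and 7 shared. CA2 was above both for 8 members (1.41% called), namely Adcy1, Ahcyl2, Mkx, Rgs13, Rreb1, Rsph10b, Slc44a5 and Tiam2, and these 8 also passed without CA3 replicate 4, while Ahcyl2, Mkx, Rreb1 and Slc44a5 passed whichever library was left out. In the paired fit these 8 were among 13 (2.02% called). CA3 was below both for 5 (2.57% called), of which only Ptchd1 and Usp13 passed whichever library was left out, and CA2 below both for 2 (0.635% called), Tgfb2 and Trhr, of which only Trhr did. The paired fit gave 7 (2.86% called) and 5 (1.21% called), with 4 and 2 shared. For these patterns too, the share of all genes that passed whichever library was left out was not computed. Of the 174 members, 105 fall in the role groups that follow. These groups were made from the authors' list, which was chosen on these samples, and are not independent evidence of any direction. For each group the members called are counted in CA1 against CA2, CA1 against CA3 and CA2 against CA3, in this order, with the percent called among all genes tested in the same direction. Rfx2, Glis3, Zbtb8a, Ghsr, Npr3, Kcnc4, Rgs9, Rgs13, Plk5, Stk26, Adamts9, Col11a1 and Slc9a5 are named below, outside the rule for naming genes, after their values were seen, and Dsp as a listed granule marker.

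**Figure D4:**
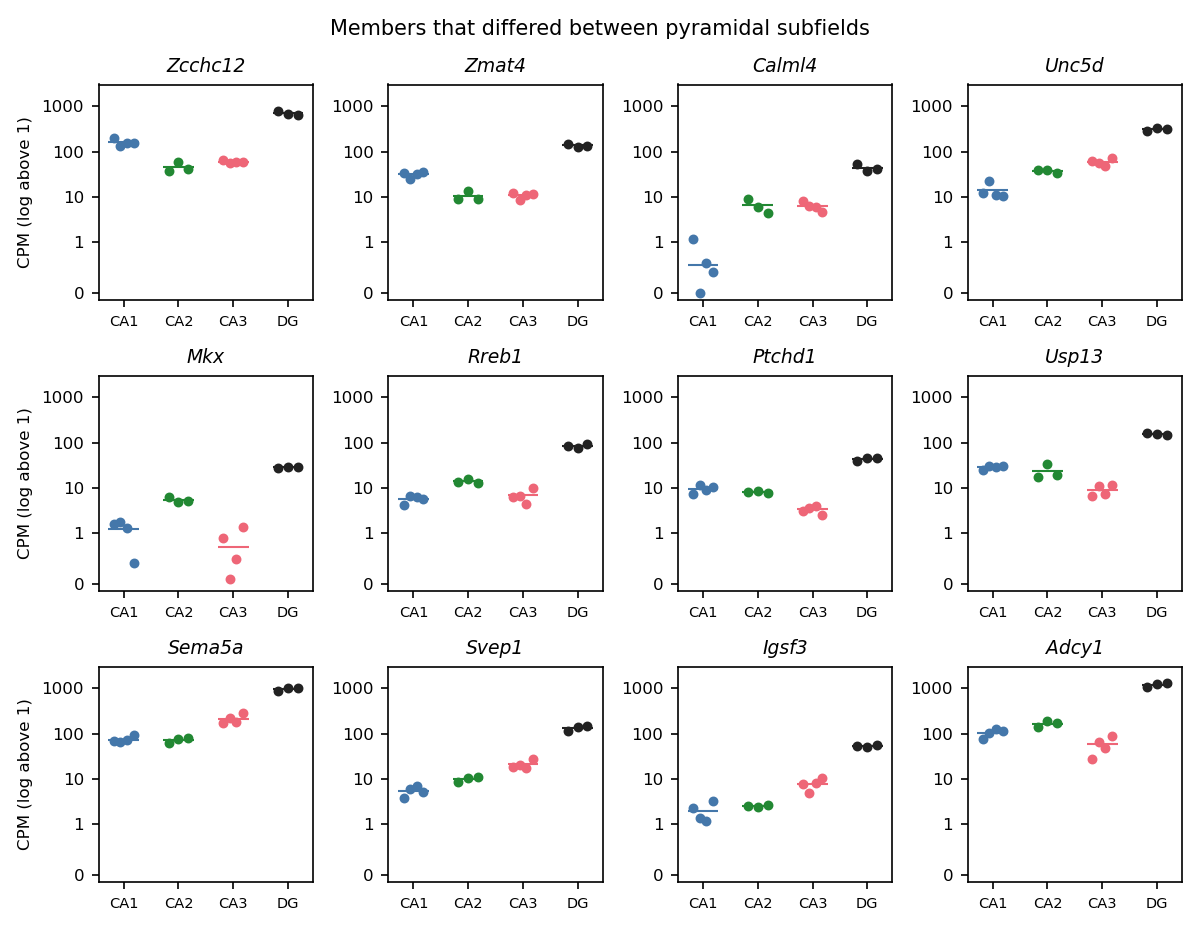
Each panel shows CPM in every independent library (points; axis logarithmic above 1 and linear below) and the mean (line) for a member that differed between pyramidal subfields. Zcchc12 and Zmat4 lie highest in CA1, Mkx and Rreb1 in CA2, and Sema5a, Svep1 and Igsf3 in CA3 among the pyramidal subfields, while Ptchd1, Usp13 and Adcy1 lie lowest in CA3.

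Transcriptional regulators formed a group of 12 members. Nhlh1, a basic helix-loop-helix factor of developing neurons, was at 0, 0, 0 and 0 CPM in CA1, 0, 0.934 and 0 in CA2, 0, 0.525, 0.124 and 0.399 in CA3 and 49, 30.4 and 40.6 in DG. No count fell on it in CA1, and its few pyramidal counts lay in the repeated CA2 pair and 3 of the CA3 libraries. It was not called in any pyramidal comparison. Rreb1, a Ras-responsive zinc finger factor, was at 4.23, 6.7, 6.27 and 5.66 CPM in CA1, 13.4, 15.4 and 13.1 in CA2, 6.22, 6.72, 4.34 and 10.2 in CA3 and 82.7, 77.4 and 95.2 in DG. The CA2 libraries all lay above those of CA1 and CA3, and Rreb1 was called against both (log2 of CA1 over CA2 -1.36 ± 0.21, adjusted p = 8.17e-05; log2 of CA2 over CA3 1.06 ± 0.20, adjusted p = 0.00128). The homeobox gene Mkx was at 1.59, 1.76, 1.34 and 0.404 CPM in CA1, 6.34, 5.03 and 5.23 in CA2, 0.91, 0.105, 0.496 and 1.4 in CA3 and 27.6, 29.2 and 28.9 in DG. It was again highest in the 3 CA2 libraries, with no overlap (log2 of CA1 over CA2 -1.99 ± 0.33, adjusted p = 0.000203; log2 of CA2 over CA3 3.08 ± 0.37, adjusted p = 8.62e-06). Btg2, an antiproliferative gene induced by activity, was at 10.6, 3.17, 6.27 and 12.1 CPM in CA1, 6.91, 11.2 and 6.6 in CA2, 9.4, 6.4, 5.08 and 7.39 in CA3 and 58, 51.3 and 53.6 in DG and Tshz1, a zinc finger homeobox gene, at 6.87, 7.52, 7.76 and 7.68 CPM in CA1, 7.68, 10.6 and 8.22 in CA2, 5.46, 8.82, 6.44 and 7.59 in CA3 and 41.2, 38.2 and 53.6 in DG. The pyramidal subfields overlapped for both of them, and neither was called. Rfx2, Glis3 and Zbtb8a were higher in CA3 than in CA1, and Zbtb8a also in CA3 than in CA2. Of the 12, those called higher were 0 in CA1 and 2 in CA2 (6.31 and 8.0% called) in the first comparison, 0 in CA1 and 3 in CA3 (12.1 and 12.7% called) in the second and 2 in CA2 and 1 in CA3 (4.16 and 3.48% called) in the third. The call of Glis3 was lost without any one of CA1 replicates 1, 2 and 3 or CA3 replicates 2 and 4 (adjusted p up to 0.132).

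Promoters were read from the RefSeq annotation of the rat genome build GRCr8, from 250 bases before to 50 after each start site, and matched 114 of the 155 members with a symbol, 3 of them by an older symbol. Since only 114 of all 174 members could be placed, no statement about the list's promoters as a whole is made. Short motifs were searched on both strands. The letters CAGATG, one form of the E-box to which helix-loop-helix factors bind, were in 14 of the 114 and in 16.6% of all 33469 promoters. The cAMP response element TGACGTCA was in 2 of the 114, Btg2 and Cartpt, and in 1.83% of all. The TATA box TATAAA was in 13 and in 14.2% of all, the E-box CAGCTG in 21 and in 15.1%, the AP-1 site TGANTCA in 8 and in 7.33%, and the GC box GGGCGG in 61 and in 33.1%, or 41.8% of the promoters of protein-coding genes. The median GC content was 63.2% over the 114 and 51.7% over all promoters, or 55% over those of protein-coding genes. The shorter TGACG, which lies within the cAMP response element, was in 22 and in 21.2%. The X-box of RFX factors and the glucocorticoid response element were in none, and in 0.332 and 0.439% of all promoters. The promoters shown were chosen after the matches were seen, Nhlh1 for the highest ratio of DG to pyramidal level, Btg2 and Cartpt for the cAMP response element and Svep1 among the members higher in CA3. Capitals mark the match, CAGATG in Nhlh1 (chr13:87054885-87055184, minus strand), TGACGTCA in Btg2 (chr13:48087641-48087940, minus strand) and Cartpt (chr2:32991186-32991485, minus strand), and TTTATA, the TATA box on the other strand, in Svep1 (chr5:77783243-77783542, minus strand). Each sequence is written 5′ to 3′ along its gene. Only the named motif is marked in each promoter. The Nhlh1 promoter also holds TATAAA, along its gene, and is among those counted for it. The match in Svep1 runs the other way and begins at base -73 from the start site. A match is a run of letters and not a site shown to be bound.
Nhlh1: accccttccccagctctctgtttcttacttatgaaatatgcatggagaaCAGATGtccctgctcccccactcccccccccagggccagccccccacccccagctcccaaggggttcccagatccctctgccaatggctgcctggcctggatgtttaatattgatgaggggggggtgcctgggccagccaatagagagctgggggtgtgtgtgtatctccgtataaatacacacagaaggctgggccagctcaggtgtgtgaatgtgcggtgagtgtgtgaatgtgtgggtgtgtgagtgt
Btg2: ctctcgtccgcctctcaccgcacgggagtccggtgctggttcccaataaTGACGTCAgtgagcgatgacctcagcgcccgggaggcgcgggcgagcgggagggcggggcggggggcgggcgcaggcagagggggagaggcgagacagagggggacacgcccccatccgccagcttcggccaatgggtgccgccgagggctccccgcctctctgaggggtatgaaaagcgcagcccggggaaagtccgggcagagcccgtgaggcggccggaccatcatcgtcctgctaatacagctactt
Cartpt: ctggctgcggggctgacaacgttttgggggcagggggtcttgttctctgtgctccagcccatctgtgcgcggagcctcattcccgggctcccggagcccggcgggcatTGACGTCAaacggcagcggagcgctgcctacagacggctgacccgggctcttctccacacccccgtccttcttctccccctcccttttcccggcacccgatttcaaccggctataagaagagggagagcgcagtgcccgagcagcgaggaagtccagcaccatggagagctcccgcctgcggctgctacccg
Svep1: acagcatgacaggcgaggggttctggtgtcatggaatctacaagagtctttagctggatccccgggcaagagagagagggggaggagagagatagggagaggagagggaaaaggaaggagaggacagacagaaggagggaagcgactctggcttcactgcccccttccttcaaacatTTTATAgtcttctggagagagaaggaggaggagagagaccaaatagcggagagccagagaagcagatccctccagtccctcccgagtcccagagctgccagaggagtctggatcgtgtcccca

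Secreted and membrane-bound ligands made up 11 members. Sema5a, a semaphorin that guides axons, was at 68.7, 64.4, 70.6 and 92.2 CPM in CA1, 61.1, 77.7 and 78.3 in CA2, 171, 220.4, 184 and 282 in CA3 and 884, 1029.8 and 1009.6 in DG. Within the pyramidal layers all 4 CA3 libraries stood above every CA1 and CA2 library, and CA3 replicate 4 was the highest (log2 of CA1 over CA3 -1.64 ± 0.14, adjusted p = 2.23e-08; log2 of CA2 over CA3 -1.58 ± 0.16, adjusted p = 5.80e-07). C1ql2, the synaptic organizer of mossy fibres, was at 1.59, 1.53, 0.896 and 1.21 CPM in CA1, 0.96, 6.26 and 0.623 in CA2, 8.04, 9.45, 6.2 and 9.98 in CA3 and 381, 251 and 309 in DG. The CA3 libraries exceeded all CA1 libraries, whereas the repeated CA2 pair reached the lowest CA3 library. C1ql2 was called in CA1 against CA3 (log2 -2.71 ± 0.43, adjusted p = 6.57e-05) and in CA2 against CA3 (log2 -1.61 ± 0.40, adjusted p = 0.0134), the latter with an adjusted p of 0.0973 without CA2 replicate 3. Kitlg, which encodes stem cell factor, the ligand of the receptor Kit, was at 8.98, 6.34, 6.57 and 8.89 CPM in CA1, 9.6, 6.9 and 7.85 in CA2, 17, 13.2, 15.4 and 18.2 in CA3 and 154, 129 and 116 in DG. Its CA3 libraries again lay above all others of the pyramidal layers (log2 of CA1 over CA3 -1.15 ± 0.16, adjusted p = 1.28e-05; log2 of CA2 over CA3 -0.99 ± 0.17, adjusted p = 0.000477). The growth factor Tgfb2 was at 9.91, 16.6, 11.9 and 8.89 CPM in CA1, 4.22, 7.85 and 5.85 in CA2, 8.19, 11.2, 9.54 and 10.8 in CA3 and 63.4, 62.7 and 65.7 in DG. The CA2 libraries were the lowest, with no overlap with CA1 (log2 of CA1 over CA2 0.95 ± 0.22, adjusted p = 0.0039). Of the 11, those called higher were 2 in CA1 and 0 in CA2 (6.31 and 8.0% called) in the first comparison, 0 in CA1 and 3 in CA3 (12.1 and 12.7% called) in the second and 0 in CA2 and 4 in CA3 (4.16 and 3.48% called) in the third. The 4 called in CA2 against CA3 were the ones described, and the call of Tgfb2 there was lost without any one of CA2 replicates 1 and 3 or CA3 replicates 2, 3 and 4 (adjusted p up to 0.137).

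The ligand group also holds peptide precursors. Cartpt, the precursor of the CART peptides, was at 0.396, 0.705, 0.149 and 0.404 CPM in CA1, 0.384, 0.82 and 1.12 in CA2, 0, 0.42, 0.124 and 0 in CA3 and 1.8, 14.7 and 11.6 in DG. Its DG level was 1.80 CPM in replicate 1 and above 10 in the other DG libraries, the largest CV of all members (71.9%). It is named because of this spread, seen after the values were known, and the cause was not tested.

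Receptors numbered 6. Unc5d, of the netrin receptor family, was at 12.3, 22.1, 11.2 and 10.5 CPM in CA1, 39.2, 38.4 and 33 in CA2, 60.7, 56.6, 49.3 and 70.7 in CA3 and 289, 326 and 313 in DG. CA1 was the lowest pyramidal subfield and CA3 the highest, and no library of one subfield overlapped another (log2 of CA1 over CA2 -1.40 ± 0.19, adjusted p = 1.73e-05; log2 of CA1 over CA3 -2.10 ± 0.18, adjusted p = 1.30e-08). It was also called in CA2 against CA3, a call lost without CA2 replicate 3 (adjusted p = 0.0892). Ptchd1, a patched-domain membrane protein linked to intellectual disability, was at 7.53, 11.9, 8.81 and 10.5 CPM in CA1, 8.06, 8.56 and 7.85 in CA2, 3.18, 3.67, 4.09 and 2.6 in CA3 and 39.95, 44.6 and 44.9 in DG. Here the CA3 libraries were all below those of CA1 and CA2 (log2 of CA1 over CA3 1.38 ± 0.19, adjusted p = 9.83e-06; log2 of CA2 over CA3 1.20 ± 0.20, adjusted p = 0.000383). Trhr, the receptor of thyrotropin-releasing hormone, was at 7.66, 4.82, 5.67 and 1.62 CPM in CA1, 0.96, 1.83 and 1.87 in CA2, 9.4, 6.19, 7.81 and 2.2 in CA3 and 45.1, 38.4 and 41.6 in DG. CA2 was the lowest pyramidal subfield, overlapping only with CA1 replicate 4 (log2 of CA1 over CA2 1.68 ± 0.43, adjusted p = 0.00901). Il1rap, a co-receptor of interleukin 1, was at 34.9, 34.1, 40.9 and 41.6 CPM in CA1, 32.6, 48 and 41.3 in CA2, 34.9, 32, 28 and 43.5 in CA3 and 235, 272 and 269 in DG. Its pyramidal values overlapped throughout and it was not called. The ghrelin receptor Ghsr was called lower in CA1 than in CA2, a call lost without any one of CA1 replicates 1 and 3 or CA2 replicates 1 and 3 (adjusted p up to 0.097), and lower in CA1 than in CA3, a call lost without any one of CA1 replicates 1 and 3 (adjusted p up to 0.0635), and the natriuretic peptide receptor Npr3 higher in CA1 than in CA3, a call lost without any one of CA1 replicates 3 and 4 or CA3 replicates 2 and 3 (adjusted p up to 0.111). Of the 6, those called higher were 1 in CA1 and 2 in CA2 (6.31 and 8.0% called) in the first comparison, 2 in CA1 and 2 in CA3 (12.1 and 12.7% called) in the second and 1 in CA2 and 2 in CA3 (4.16 and 3.48% called) in the third.

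Ion channel genes numbered 8. Trpc6, a cation channel gated by diacylglycerol, was at 7.0, 8.93, 6.87 and 13.3 CPM in CA1, 8.06, 11.2 and 8.34 in CA2, 16.2, 20.6, 16.7 and 24.4 in CA3 and 199, 187 and 173 in DG. All CA3 libraries lay above those of CA1 and CA2, by a log2 fold change of -1.28 ± 0.18, adjusted p = 1.15e-05 in CA1 against CA3. Piezo2, a mechanosensitive channel, was at 0.396, 2.0, 1.34 and 3.23 CPM in CA1, 0.768, 3.22 and 1.74 in CA2, 2.27, 5.14, 1.86 and 8.78 in CA3 and 83, 132 and 137 in DG. Its pyramidal values were highest in CA3 replicates 4 and 2, and CA1 and CA3 overlapped. Gabrd, the delta subunit of the extrasynaptic GABA-A receptors that give granule cells their tonic inhibition, was at 16.8, 15.2, 14.9 and 11.7 CPM in CA1, 9.79, 8.18 and 9.09 in CA2, 3.64, 8.5, 2.23 and 6.19 in CA3 and 103, 82.3 and 96.6 in DG. CA1 was above CA3 in every library (log2 1.44 ± 0.24, adjusted p = 0.000128). The potassium channel gene Kcnc4 was lower in CA1 than in CA3 (log2 -1.22 ± 0.18, adjusted p = 2.39e-05). Of the 8, those called higher were 0 in CA1 and 1 in CA2 (6.31 and 8.0% called) in the first comparison, 1 in CA1 and 3 in CA3 (12.1 and 12.7% called) in the second and 0 in CA2 and 1 in CA3 (4.16 and 3.48% called) in the third. Piezo2 was called higher in CA3 than in CA1, a call lost without any one of CA1 replicates 1 and 3 or CA3 replicates 2 and 4 (adjusted p up to 0.0878), and Kcnc4 lower in CA1 than in CA2, a call lost without any one of the repeated CA2 pair or CA2 replicate 3 (adjusted p up to 0.082).

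G protein and cyclic nucleotide signalling held 8 members. Adcy1, the adenylyl cyclase stimulated by calcium and calmodulin and the member with a symbol of highest DG mean, was at 75.8, 102, 129 and 116 CPM in CA1, 139.8, 188 and 169.9 in CA2, 27.9, 63.6, 48.2 and 90.4 in CA3 and 1077, 1207 and 1300.1 in DG. Among the pyramidal libraries those of CA2 were the highest and did not overlap with CA3 (log2 of CA2 over CA3 1.52 ± 0.24, adjusted p = 0.000171). Pde1b, a phosphodiesterase that calcium and calmodulin also activate, was at 48.7, 47, 54.9 and 56.2 CPM in CA1, 27.3, 37.7 and 33.2 in CA2, 24.7, 29.9, 27.5 and 34.7 in CA3 and 236, 236 and 268 in DG. All CA1 libraries were above those of CA2 and CA3 (log2 of CA1 over CA2 0.58 ± 0.13, adjusted p = 0.00359; log2 of CA1 over CA3 0.73 ± 0.12, adjusted p = 9.75e-05). Gnal, the alpha subunit of the stimulatory G protein Golf, was at 8.72, 9.63, 7.02 and 4.85 CPM in CA1, 9.22, 12.1 and 9.96 in CA2, 12.7, 11.9, 7.56 and 18.8 in CA3 and 143, 119.7 and 142 in DG. CA3 replicate 4 was the highest pyramidal library for it, and the subfields overlapped. Of the 8, those called higher were 1 in CA1 and 2 in CA2 (6.31 and 8.0% called) in the first comparison, 4 in CA1 and 1 in CA3 (12.1 and 12.7% called) in the second and 3 in CA2 and 0 in CA3 (4.16 and 3.48% called) in the third. In CA1 against CA2 Adcy1 was lower in CA1, a call lost without any one of CA1 replicates 1, 2 and 4, the repeated CA2 pair, CA2 replicate 3, CA3 replicate 3, the repeated DG pair or DG replicate 3 (adjusted p up to 0.14), as was Rgs13, a call lost without CA2 replicate 1 (adjusted p = 0.0637). In CA1 against CA3 the call of Adcy1, higher in CA1, was lost without CA1 replicate 3 (adjusted p = 0.0543) and that of Gnal, higher in CA3, without any one of CA1 replicate 3 or CA3 replicate 4 (adjusted p up to 0.0678). In CA2 against CA3 that of Rgs9, higher in CA2, was lost without the repeated CA2 pair (adjusted p = 0.0699) and that of Rgs13, also higher in CA2, without any one of CA2 replicate 1 or CA3 replicate 3 (adjusted p up to 0.142).

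Of the 8 kinases, Dgkh, a diacylglycerol kinase, was at 33.6, 62.1, 46.6 and 54.2 CPM in CA1, 19.2, 38.9 and 37 in CA2, 12.4, 29.1, 14.6 and 33.1 in CA3 and 209, 315 and 348 in DG. CA1 stood above CA3 in every library (log2 1.06 ± 0.27, adjusted p = 0.00647). Rps6ka2, a ribosomal S6 kinase, was at 34.9, 36.1, 43.4 and 31.1 CPM in CA1, 31.5, 32.4 and 26.2 in CA2, 33.4, 36.1, 26.8 and 24.2 in CA3 and 169.9, 151 and 168 in DG and Stk32c at 22.9, 17.7, 21.9 and 19 CPM in CA1, 16.3, 17.5 and 13.2 in CA2, 14.4, 17.9, 16.9 and 17.6 in CA3 and 96.7, 79.4 and 112 in DG. The pyramidal values of Rps6ka2 overlapped. For Stk32c all CA1 libraries lay above those of CA2, while CA3 overlapped with both. Neither gene was called. Plk5 and Stk26 were higher in CA3 than in CA1. Both were also called in CA2 against CA3, but Plk5 was lost there without any one of CA1 replicate 3, the repeated CA2 pair, CA2 replicates 1 and 3, CA3 replicates 1, 2, 3 and 4 or DG replicate 3 (adjusted p up to 0.228), and Stk26 without any one of CA1 replicates 3 and 4, the repeated CA2 pair, CA2 replicate 3, CA3 replicates 3 and 4, the repeated DG pair or DG replicate 3 (adjusted p up to 0.184). In CA1 against CA2, Plk5 was lower in CA1, a call lost without any one of CA1 replicates 2, 3 and 4, the repeated CA2 pair, CA2 replicates 1 and 3, CA3 replicates 1, 2, 3 and 4 or DG replicate 3 (adjusted p up to 0.162). Of the 8, those called higher were 0 in CA1 and 1 in CA2 (6.31 and 8.0% called) in the first comparison, 1 in CA1 and 2 in CA3 (12.1 and 12.7% called) in the second and 0 in CA2 and 2 in CA3 (4.16 and 3.48% called) in the third.

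Regulators of small GTPases and of the cytoskeleton gave 9 members. Tiam1, an activator of Rac, was at 24.8, 22.2, 29.4 and 29.5 CPM in CA1, 19.97, 41.9 and 30.3 in CA2, 22.6, 31.7, 33.7 and 45.3 in CA3 and 395, 393 and 477 in DG. CA3 replicate 4 and the repeated CA2 pair were the highest pyramidal libraries, and it was not called. Its relative Tiam2 was at 10.6, 17, 17.8 and 14.1 CPM in CA1, 31.1, 24.3 and 32.8 in CA2, 14.6, 16.1, 16.4 and 23 in CA3 and 250.3, 235 and 208 in DG. For Tiam2 all CA2 libraries stood above CA1 and CA3 (log2 of CA1 over CA2 -1.04 ± 0.18, adjusted p = 0.000257; log2 of CA2 over CA3 0.74 ± 0.17, adjusted p = 0.00773), and the call in CA2 against CA3 was lost without CA2 replicate 3 (adjusted p = 0.0697). Sipa1l2, a Rap regulator, was at 13.2, 14.4, 19.9 and 12.9 CPM in CA1, 19.97, 21.8 and 21.2 in CA2, 7.73, 14.2, 11.3 and 14.6 in CA3 and 163, 173 and 196 in DG. It was higher in CA2 than in CA3 with no overlap (log2 0.80 ± 0.18, adjusted p = 0.00623). Dock11, an activator of Cdc42, was lower in CA1 than in CA2 (log2 -0.84 ± 0.18, adjusted p = 0.00246). Of the 9, those called higher were 0 in CA1 and 2 in CA2 (6.31 and 8.0% called) in the first comparison, 1 in CA1 and 1 in CA3 (12.1 and 12.7% called) in the second and 2 in CA2 and 1 in CA3 (4.16 and 3.48% called) in the third. The 2 members with roles in exocytosis were Stxbp6, which binds SNARE proteins, and the synaptotagmin Syt10. Stxbp6 was at 13.2, 13.9, 13.4 and 10.9 CPM in CA1, 15.7, 15.2 and 16.7 in CA2, 18.5, 14.8, 22.1 and 15.4 in CA3 and 178, 167 and 165 in DG, and Syt10 at 1.06, 3.29, 1.64 and 1.62 CPM in CA1, 0.96, 1.35 and 2.99 in CA2, 0.152, 0.315, 0 and 1.6 in CA3 and 24.2, 34.5 and 24.8 in DG. Stxbp6 was higher in CA3 than in CA1 (log2 -0.53 ± 0.14, adjusted p = 0.00825), while Syt10 had its lowest values in CA3 replicates 1 to 3 and was lower in CA3 (log2 2.12 ± 0.63, adjusted p = 0.0173), a call lost without any one of CA1 replicate 2 or CA3 replicates 2 and 3 (adjusted p up to 0.124). Neither was called in the other comparisons.

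Adhesion and junction genes were a group of 15. Fat4, a giant cadherin of planar cell polarity, was at 40.2, 56.4, 53.5 and 60.2 CPM in CA1, 61.6, 78.6 and 73.3 in CA2, 82.2, 116, 93.2 and 154 in CA3 and 845, 1158 and 1088 in DG. CA1 lay below CA2 and CA2 below CA3 without overlap, and Fat4 was called in CA1 against CA3 (log2 -1.18 ± 0.17, adjusted p = 1.64e-05). Lrrtm4, a postsynaptic adhesion protein, was at 41.2, 47.2, 55.7 and 54.2 CPM in CA1, 33.2, 39.9 and 33.5 in CA2, 26.1, 37, 30.4 and 33.7 in CA3 and 303, 264 and 268 in DG. It was higher in CA1 than in CA3 in every library (log2 0.54 ± 0.12, adjusted p = 0.00237), and also called higher in CA1 than in CA2, a call lost without any one of CA1 replicates 2, 3 and 4, CA2 replicates 1 and 3, the repeated DG pair or DG replicates 1 and 3 (adjusted p up to 0.177). Dsp, which encodes the desmosomal protein desmoplakin, was at 0.925, 0.587, 1.79 and 1.62 CPM in CA1, 0.96, 1.94 and 1.74 in CA2, 1.36, 1.68, 2.48 and 1.8 in CA3 and 13.9, 11.5 and 14 in DG, and Perp, a desmosomal membrane protein, at 3.96, 3.88, 3.28 and 4.85 CPM in CA1, 2.3, 2.77 and 2.86 in CA2, 3.94, 5.67, 3.47 and 4.79 in CA3 and 54.4, 50.5 and 58.6 in DG. Both were low in all pyramidal libraries. Igsf3, of the immunoglobulin superfamily, was at 2.25, 1.41, 1.19 and 3.23 CPM in CA1, 2.5, 2.4 and 2.62 in CA2, 7.73, 4.93, 8.18 and 10.6 in CA3 and 53.9, 49.7 and 56.6 in DG. The CA3 libraries of Igsf3 stood above all other pyramidal libraries, with replicate 4 the highest (log2 of CA1 over CA3 -2.16 ± 0.26, adjusted p = 2.35e-06; log2 of CA2 over CA3 -1.62 ± 0.27, adjusted p = 0.000292). Marveld2, tricellulin of tight junctions, was at 0.925, 0.117, 0.597 and 0.404 CPM in CA1, 0.576, 1.01 and 0.498 in CA2, 3.49, 3.88, 2.73 and 3.79 in CA3 and 17.8, 16.8 and 18.3 in DG. Its 4 CA3 libraries were likewise separate from the others (log2 of CA1 over CA3 -2.79 ± 0.37, adjusted p = 5.73e-06; log2 of CA2 over CA3 -2.27 ± 0.37, adjusted p = 0.000251). Of the 15, those called higher were 1 in CA1 and 1 in CA2 (6.31 and 8.0% called) in the first comparison, 1 in CA1 and 3 in CA3 (12.1 and 12.7% called) in the second and 0 in CA2 and 4 in CA3 (4.16 and 3.48% called) in the third. In CA2 against CA3 only Marveld2 and Igsf3 held in every fit that left out 1 library. The call of Perp was lost without any one of the repeated CA2 pair, CA2 replicates 1 and 3 or CA3 replicates 2 and 4 (adjusted p up to 0.144) and that of Fat4 without any one of CA2 replicates 1 and 3 or CA3 replicates 2 and 4 (adjusted p up to 0.0871).

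Extracellular matrix genes numbered 11. Of the 11, those called higher were 1 in CA1 and 1 in CA2 (6.31 and 8.0% called) in the first comparison, 1 in CA1 and 3 in CA3 (12.1 and 12.7% called) in the second and 0 in CA2 and 4 in CA3 (4.16 and 3.48% called) in the third. The 4 called in CA2 against CA3 were Adamts9, Svep1, Gpc3 and Pxdn. The call of Adamts9 was lost without any one of CA1 replicates 2 and 3, CA2 replicates 1 and 3 or CA3 replicates 3 and 4 (adjusted p up to 0.243). Svep1, a large matrix protein that binds integrins, was at 3.83, 5.99, 7.02 and 5.25 CPM in CA1, 8.64, 10.4 and 11.2 in CA2, 18, 20.2, 17.6 and 27.9 in CA3 and 112, 141 and 146 in DG. The subfields stepped up from CA1 to CA2 to CA3 without overlap (log2 of CA1 over CA2 -0.94 ± 0.22, adjusted p = 0.00426; log2 of CA1 over CA3 -1.98 ± 0.19, adjusted p = 8.70e-08; log2 of CA2 over CA3 -1.04 ± 0.19, adjusted p = 0.000796). Pxdn, a peroxidase that crosslinks collagen IV, was at 8.45, 12, 13.1 and 17.8 CPM in CA1, 7.1, 8.9 and 5.98 in CA2, 23, 21, 11.3 and 31.7 in CA3 and 134, 116 and 133 in DG. CA3 was above CA2 in every library and overlapped with CA1 (log2 of CA2 over CA3 -1.57 ± 0.26, adjusted p = 0.000316). Gpc3, a heparan sulfate proteoglycan of the glypican family, was at 5.42, 4.23, 4.03 and 2.02 CPM in CA1, 2.69, 3.21 and 2.99 in CA2, 7.73, 5.35, 10.3 and 10.4 in CA3 and 138, 117 and 119 in DG. It too was higher in CA3 than in CA2 without overlap (log2 -1.51 ± 0.25, adjusted p = 0.000375). Col11a1, a fibrillar collagen chain, was higher in CA1 than in CA3 (log2 1.29 ± 0.32, adjusted p = 0.00542), and also than in CA2, a call lost without any one of CA1 replicates 1 and 2 or CA2 replicates 1 and 3 (adjusted p up to 0.135).

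Transport and metabolism took 15 members. Ahcyl2, a regulator of ion transport related to adenosylhomocysteinase, was at 94.9, 105, 106 and 97.8 CPM in CA1, 134, 143 and 151 in CA2, 92.7, 90.2, 84.4 and 112 in CA3 and 636, 673 and 666 in DG. CA2 stood above CA1 and CA3 in every library (log2 of CA1 over CA2 -0.56 ± 0.10, adjusted p = 0.000457; log2 of CA2 over CA3 0.57 ± 0.10, adjusted p = 0.000637). Pitpnm2, a phosphatidylinositol transfer protein, was at 79.4, 86.2, 97.8 and 106 CPM in CA1, 30.9, 73.5 and 48.3 in CA2, 29.9, 50.8, 47 and 66.5 in CA3 and 394, 419 and 528 in DG. CA1 was the highest subfield, and CA2 replicate 1 and CA3 replicate 1 were the lowest libraries (log2 of CA1 over CA3 0.84 ± 0.21, adjusted p = 0.00544). It was also called higher in CA1 than in CA2, a call lost without any one of CA1 replicates 3 and 4 or CA2 replicates 1 and 3 (adjusted p up to 0.129). Mgam, the intestinal maltase-glucoamylase, was at 2.38, 2.7, 2.69 and 3.23 CPM in CA1, 0.96, 1.88 and 0.872 in CA2, 0.758, 0.42, 0.248 and 4.59 in CA3 and 90.7, 92.2 and 74.9 in DG. In the pyramidal layers CA3 replicate 4 was the highest and the other CA3 libraries the lowest, and it was not called. Of the 15, those called higher were 1 in CA1 and 2 in CA2 (6.31 and 8.0% called) in the first comparison, 1 in CA1 and 0 in CA3 (12.1 and 12.7% called) in the second and 3 in CA2 and 0 in CA3 (4.16 and 3.48% called) in the third. The 3 called in CA2 against CA3 were Slc44a5, Slc9a5 and Ahcyl2. The call of Slc9a5 was lost without any one of the repeated CA2 pair, CA2 replicate 3 or CA3 replicates 1, 2 and 3 (adjusted p up to 0.151). The heat map of role groups shows these members library by library.

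**Figure D5:**
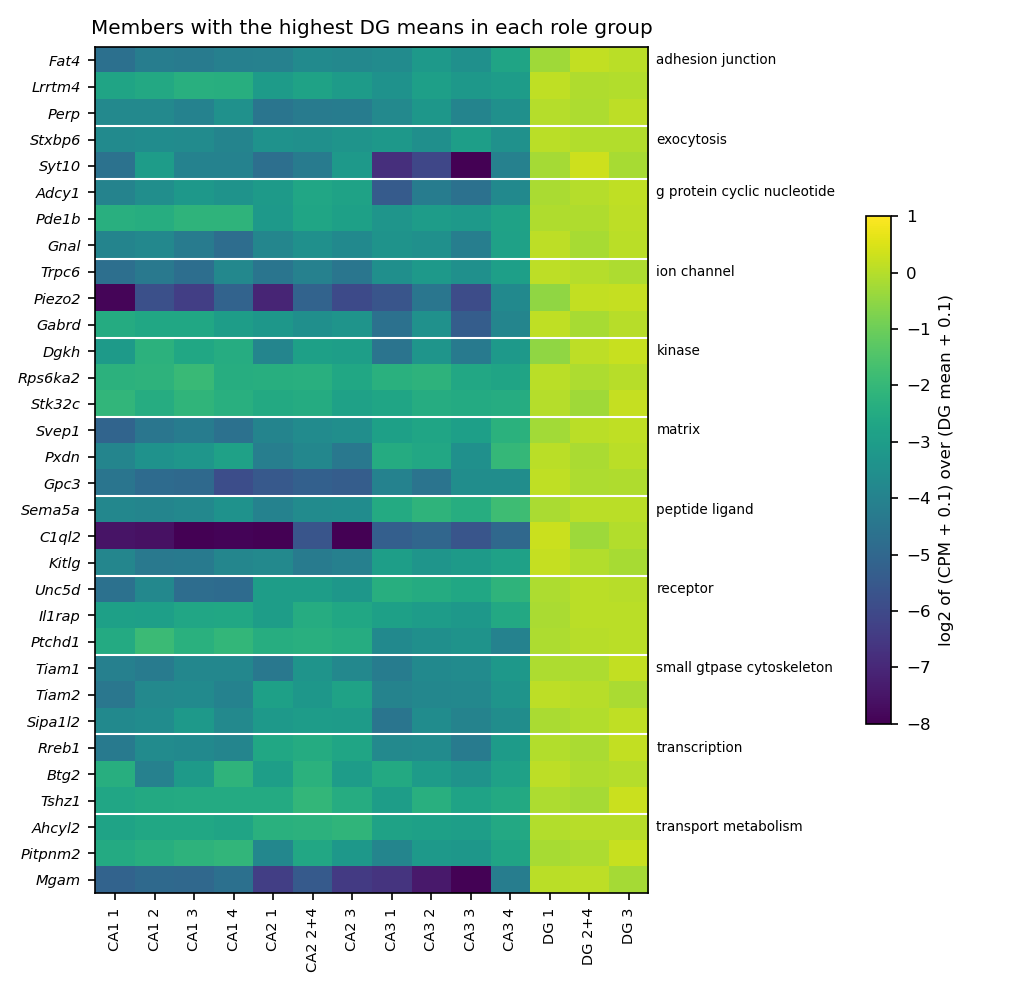
Colour gives the log2 of CPM over the DG mean, 0.1 CPM added to both, in each independent library (columns) for up to 3 members per role group with the highest DG means (rows). The 3 DG columns lie near 0 by construction. Among the pyramidal columns of their own rows, C1ql2 is lower in all CA1 columns than in all CA3 columns, and Sema5a and Unc5d are highest in the CA3 columns.

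Outside the role groups were further members with clear differences among the pyramidal subfields. Zcchc12, a zinc finger coactivator of BMP signalling, was at 194, 136, 157 and 153 CPM in CA1, 38, 57.6 and 40.5 in CA2, 66.3, 57, 58.7 and 58.1 in CA3 and 784, 662 and 638 in DG. The 4 CA1 libraries lay far above CA2 and CA3 (log2 of CA1 over CA2 1.75 ± 0.14, adjusted p = 3.57e-08; log2 of CA1 over CA3 1.33 ± 0.13, adjusted p = 7.92e-08). Zmat4, a matrin-type zinc finger gene, was at 34.2, 24.8, 31.7 and 35.2 CPM in CA1, 9.22, 13.8 and 8.97 in CA2, 12.1, 8.4, 11.3 and 11.6 in CA3 and 148, 129 and 133 in DG. It had the same order, CA1 being separate from both others (log2 of CA1 over CA2 1.47 ± 0.17, adjusted p = 2.62e-06; log2 of CA1 over CA3 1.44 ± 0.15, adjusted p = 3.46e-07). Calml4, a calmodulin-like gene, was at 1.19, 0, 0.597 and 0.404 CPM in CA1, 9.22, 6.01 and 4.48 in CA2, 8.34, 6.4, 5.95 and 4.59 in CA3 and 52.1, 37.6 and 41.3 in DG. It was nearly absent from CA1 and present in all CA2 and CA3 libraries (log2 of CA1 over CA2 -3.56 ± 0.45, adjusted p = 7.52e-06; log2 of CA1 over CA3 -3.56 ± 0.42, adjusted p = 1.65e-06). Tnfaip8, a gene induced by tumour necrosis factor, was at 2.25, 0.822, 2.99 and 2.02 CPM in CA1, 5.57, 6.67 and 5.35 in CA2, 12.7, 10.7, 9.91 and 8.78 in CA3 and 69.3, 63.8 and 50.8 in DG. CA1 was again the lowest (log2 of CA1 over CA3 -2.51 ± 0.25, adjusted p = 1.35e-07). The call in CA2 against CA3, higher in CA3, was lost without CA2 replicate 3 (adjusted p = 0.0928). Usp13, a deubiquitinating enzyme, was at 24.3, 30.9, 29 and 30.7 CPM in CA1, 17.3, 33.2 and 19.4 in CA2, 6.52, 10.9, 7.56 and 11.4 in CA3 and 159, 153 and 147 in DG. Its CA3 libraries lay below all of CA1 and CA2 (log2 of CA1 over CA3 1.57 ± 0.19, adjusted p = 2.19e-06; log2 of CA2 over CA3 1.35 ± 0.20, adjusted p = 9.91e-05). AABR07068161.1, a locus without a described product, was at 30.9, 34.7, 34 and 36.8 CPM in CA1, 30.9, 39.1 and 34.4 in CA2, 42.9, 53.6, 47.3 and 80.4 in CA3 and 954, 1012 and 914 in DG. CA3 replicate 4 was its highest pyramidal library (log2 of CA1 over CA3 -0.80 ± 0.15, adjusted p = 0.00028). In the paired fit over 12 columns, the members with the smallest p in each direction, all named here, kept their direction and an adjusted p under 0.05, the highest being 0.00121 for Tgfb2 in CA1 against CA2.

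Of the 19 members without a symbol, ENSRNOG00000058094 had the highest DG mean of all members, 1238 CPM, with pyramidal libraries from 172 to 347 CPM, and it was not called in any pyramidal comparison. Some members are uncertain as single genes. AABR07060341.2 and AABR07060341.3 share a clone name, and U6 and SNORA63 belong to families of small RNAs with near-identical copies. AABR07060341.2 was at 0.132, 0.47, 1.34 and 2.02 CPM in CA1, 0.576, 0.706 and 0.374 in CA2, 0, 0.105, 0.124 and 0.798 in CA3 and 32.5, 38.9 and 32.4 in DG. Of the 114 members placed on the genome, 2 pairs were next to each other among protein-coding genes, Polm with Aebp1 and Ghsr with Fndc3b. Whether reads were counted by strand is not stated, so reads from an overlapping gene may be among those of any member.

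The lists of gene families held 151 genes, of which 26 had an identifier and 20 were members. The other 6 did not meet the rule, and all of them come from the authors' list, chosen on these samples. Their values are therefore a description, with no test. Among the GABA-A receptor subunits, where Gabrd and Gabrr3 are members, Gabrr2 was at 19.6, 16.4, 22.7 and 18.2 CPM in CA1, 2.5, 5.06 and 3.86 in CA2, 2.58, 3.67, 3.22 and 2.99 in CA3 and 2.58, 2.4 and 3.47 in DG. Every CA1 library stood above all others. Gabra6 was at 0.264, 1.53, 0.747 and 0.404 CPM in CA1, 6.91, 6.43 and 5.23 in CA2, 0.303, 0.105, 0.124 and 0.599 in CA3 and 0.258, 0 and 0 in DG. It was highest in the 3 CA2 libraries, with at most 1 count in any DG library. Unc13c, of the Unc13 family of synaptic vesicle priming factors, was at 0.528, 2.11, 2.09 and 2.02 CPM in CA1, 1.54, 2.24 and 1.62 in CA2, 22.1, 7.14, 30.7 and 23.4 in CA3 and 36.1, 35.7 and 45.9 in DG. CA3 and DG both lay far above CA1 and CA2. Adamts18, Trdn and Fst are listed in the same families as the members Adamts9, Ryr1 and Tgfb2. They stayed under the level threshold, with means over the 4 DG columns of 3.51, 1.86 and 2.25 CPM. None had more than 4 counts in any pyramidal library.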

How the data were processed

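Raw counts per Ensembl gene, not normalized, were deposited by the authors, who had aligned reads with STAR to Rnor6. How reads were counted and whether by strand is not stated. The authors' own comparison tables, with fold changes and p-values, were not used. CPM is the count over the column sum without ENSRNOG00000043866 and ENSRNOG00000030478, which held 16.1 to 31.1% of the counts. Columns of 1 subfield whose chi-square was under 1.5 times its degrees of freedom were summed for the tests. Genes with more than 10 counts were fitted in edgeR 4.0.16 (R 4.3.3) with TMM normalization, 1 coefficient per subfield, quasi-likelihood F-tests and Benjamini-Hochberg adjustment. Replicate numbers were taken as rats, from the titles. Over 5000 genes, deviations from the subfield mean had a median correlation of 0.44 between libraries of the same number and -0.18 between others, the repeated pairs left out. Replicate 1 carries much of this, its pairs lying at 0.703 to 0.771, while other pairs of the same number ran from -0.17 to 0.462 and one of different numbers reached 0.569, so that the pairing by rat is less sure for replicates 2 to 4. Alternatives were DESeq2 1.42.0 and its size factors, other filters, 16 columns, replicate blocks, fits to pairs of subfields and leaving out each library. The procedure was also run on simulated data, but the outcome is not given here and no result rests on it. Members, lists and alternatives were chosen with earlier results of these data known. By the rule for naming, the members named were those with the highest DG means, the 3 highest in each role group, the highest ratios, those at the thresholds, the 5 smallest p in each pyramidal comparison and direction, and the extremes of the DG spread. Others named were chosen after their values were seen. Python 3.11.15 with pandas 2.3.3 was used for the rest.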

Additional observations from a re-analysis of the deposited data

Results flagged for a closer look

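In 134 groups of 4 libraries (the named genes in CA1 and CA3), 11 had a library far from the others, the gap to its nearest neighbour taking most of the group's range. For values that follow a normal distribution, chance alone marks about 1 in 20 groups in this way. Many of these values rest on few counts, and 1 count beside libraries with none is always marked. The number marked is therefore not read against that rate. CA3 replicate 4 was far above the other CA3 libraries for Mgam (4.591 CPM, others 0.248 to 0.758), Itgb4 (2.795 CPM, others 0 to 0.315), Lnp1 (1.797 CPM, others 0.152 to 0.248) and AABR07060341.2 (0.7985 CPM, 4 counts, others 0 to 0.124). The same library had the highest Prox1 of the pyramidal libraries, and the cause was not tested. CA3 replicate 2 was far above the other CA3 libraries for the CA1 marker Wfs1 (129.3 CPM, others 10.6 to 17.0) and for Htr5b (7.976 CPM, others 1.36 to 1.82). Unc5d in CA1 replicate 2 was at 22.08 CPM, with the other CA1 libraries from 10.5 to 12.3. Unc13c in CA1 replicate 1 was low, at 0.5284 CPM against 2.02 to 2.11. The others rest on 1 or 2 counts, Itgb4 and Fst in CA1 replicate 4 (0.4042 CPM each, others 0) and Trdn in CA1 replicate 1 (0.2642 CPM, others 0).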

How the results depend on the processing

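The number of members moved most with the fold threshold, from 174 to 274 at 3-fold, and was 126 at 5-fold. With TMM-normalized CPM it was 134. The ratio of that CPM to the CPM used here was on average 0.723 in the DG libraries and 0.777 to 0.826 in the pyramidal subfields. TMM-normalized CPM counts the 2 very abundant genes in the library totals, so this ratio is not the effect of TMM alone. With sums that include those 2 genes, and no TMM, there were 160 members, 157 of them shared. Taking each repeated pair once gave 173 members, 167 of them shared. The summed level in the pyramidal libraries, 11.2% of the DG mean, was 5.25% with the left-out genes and 9.17% as a median over members; these are other genes and another average.

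Leaving out each library in turn gave 27 to 39 called members in CA1 against CA2, 52 to 59 in CA1 against CA3 and 24 to 44 in CA2 against CA3. The lowest of the last range, 24, came without CA2 replicate 3, which leaves CA2 with 2 libraries. Of all genes tested, 5.25% were called in that fit, against 7.65% in the main fit. The share of all genes thus moved as well, and these ranges alone are no result about the members. The planned tests of family genes against DG are not reported, since these genes come from a list chosen on the same libraries. Other alternatives are given as members called in CA1 against CA2, CA1 against CA3 and CA2 against CA3, against 35, 57 and 42 in the main fit. The DESeq2 Wald test gave 41, 57 and 45, and its size factors in edgeR 33, 57 and 42. With no filter on low counts they were 47, 65 and 48. Fits to the 2 subfields alone gave 29, 53 and 30, of 165, 170 and 170 members tested. No percent of all genes is given for these fits, so they are no result about the members. Low pyramidal levels limit precision, 24 members having at least 1 pyramidal subfield with no more than 3 counts in any library. The planned comparison of motifs with promoters of genes above 10 counts was not run, since no table pairs all identifiers with symbols. Against the promoters of protein-coding genes, an alternative added after seeing the data, the share with CAGATG was 14.9%, with TGACGTCA 2.10% and with the GC box 41.8%.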
